A study of Mus musculus with 20 samples.

Results

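RNA of monocytic myeloid-derived suppressor cells (mMDSC) was compared between 5 libraries from mice dosed with CBPi and 5 from mice dosed with vehicle, across all genes. These 10 libraries, of 20 in the series, were taken by their labelled cell type (mMDSC) and treatment, and no measured value entered the choice. The other 10 libraries, from granulocytic cells (gMDSC), were used only to test where the response of mMDSC differed from theirs. CBPi is GNE-781, a small molecule against the bromodomain shared by 2 related histone acetyltransferases, CBP and EP300. It was given by oral gavage at 25 mg/kg, BID for 7 days, and the vehicle was MCT. All mice were female SCID.beige animals of 6 to 8 weeks, a strain without T cells, B cells or functional NK cells. Each received 5 M tumour cells under the skin, either the mouse colon carcinoma line CT26 or MDA.MB.231-X1.1, a line of human breast cancer origin, and was dosed once tumours averaged 150 to 200 mm3. Collagenase D and DNAse were used to dissociate them, and the sort took mMDSC as cells with CD45, CD11b and Ly6C but without Ly6G and F4/80. The labels tie no library to a tumour line or to 1 mouse, so differences between lines cannot be told apart here, and p-values measure only the spread between these libraries, part of which may be technical.

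CBP and EP300 are related coactivators that transcription factors bring to enhancers and promoters, where they acetylate histones and other proteins. Their bromodomain binds acetylated lysine, and blocking it lowers acetylation of histone H3 at lysine 27 and the output of many enhancers without removing the enzymes. Monocytic MDSC are immature cells of the monocyte lineage that enter tumours from the blood through chemokine receptors, damp immune responses there and can mature into macrophages.

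Total counts ran from 13.51 to 26.64 M per library. Levels below are in CPM, counts per M scaled by TMM, vehicle libraries carry the numbers 1 to 5 and CBPi libraries 6 to 10, and a fold change is CBPi against vehicle on the log2 scale with its standard error (SE). Within a group, log2 CPM of 2 libraries correlated across genes at r = 0.916 to 0.963, and the lowest values were those of vehicle 4 (0.916 to 0.931). Vehicle 4, CBPi 6 and CBPi 8 stood apart from the other 7 on the second principal component (19.7% of the variance). In these 3 libraries the counts made up 55.3% to 56.6% of the library total behind the deposited RPKM values, against 58.6% to 62.4% in the other 7. Every gene named below as higher or lower kept its call without these 3 libraries, without each library in turn and under the other alternatives tried, 17 in all, except where another outcome is given beside it.

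The sorted cells carried RNA of the monocyte lineage. Csf1r, a growth factor receptor of monocytes and macrophages, was at 1859 to 3289 CPM in vehicle and 1726 to 2942 CPM with CBPi, and Ly6g was at 0.463 CPM or less in every library. Adgre1, the gene of the F4/80 antigen that the gate excluded, was at 860 to 1124 CPM in vehicle and 495 to 737 CPM with CBPi (log2 fold change -0.65 ± 0.13, adjusted p = 0.00864, and 0.0507 in the fit over all 20 libraries of the series). The gate genes Ptprc, which encodes CD45, and Ly6c2, one of the close paralogs behind the Ly6C antigen, were lower by -0.54 ± 0.09 (adjusted p = 0.00319) and -1.24 ± 0.18 (adjusted p = 0.00122), whereas Itgam (CD11b) did not pass (0.32 ± 0.23, adjusted p = 0.459). Summed over 16 monocyte markers the level was 9535 to 12350 CPM in vehicle and 7712 to 9378 CPM with CBPi, with 4 members lower. Over macrophage markers the sum was 27816 to 39971 CPM in vehicle and 23646 to 28977 CPM with CBPi, with 2 of 19 tested members higher and 6 lower. A large part of this sum was Apoe, which was not called (14889 to 24426 CPM in vehicle and 14736 to 18464 CPM with CBPi). Dendritic cell markers summed to 1293 to 1574 CPM and 866 to 1072 CPM, with 3 of 16 tested members lower (Ciita, Itgax and Batf3). Their median log2 fold change was 0.18, with 9 members above 0 and 7 below. Epithelial markers summed to 53.5 to 69.6 CPM and 12.8 to 29.6 CPM, with 3 of 8 tested members lower, most of it the keratin gene Krt80 (35.3 to 49.4 CPM, then 1.38 to 10.4 CPM), while Epcam stayed at 2.50 CPM or less throughout. Lymphocyte and NK markers were low in both groups (24.9 to 64.7 CPM and 16.3 to 35.1 CPM). The part of these shifts in the results below was not tested, and in bulk RNA fewer cells of a type and less RNA per cell cannot be told apart.

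Of 11912 genes tested, 360 were higher and 660 lower with CBPi at an adjusted p under 0.05 (quasi-likelihood test of edgeR, Benjamini-Hochberg adjusted). These were 8.56% of the tested genes, 3.02% higher and 5.54% lower. The median log2 fold change was 0.008 over all tested genes, 0.87 among the higher and -0.90 among the lower. At least 2-fold changes were met by 144 of the higher and 286 of the lower genes, and at least 4-fold changes by 35 and 78. In 832 of the 1020 called genes the lowest library of one group lay above the highest of the other, which held for 9.75% of all tested genes, 3.99% with CBPi higher and 5.76% with CBPi lower. Without vehicle 4, CBPi 6 and CBPi 8 there were 452 higher and 726 lower genes, of which 252 and 536 were among those already called. With vehicle 2 left out, 221 were higher and 473 lower, and the fit over all 20 libraries gave 165 higher. Of the 1020 called genes 463 kept their call under all 17 alternatives, 115 of them higher and 348 lower.

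**Figure D1:**
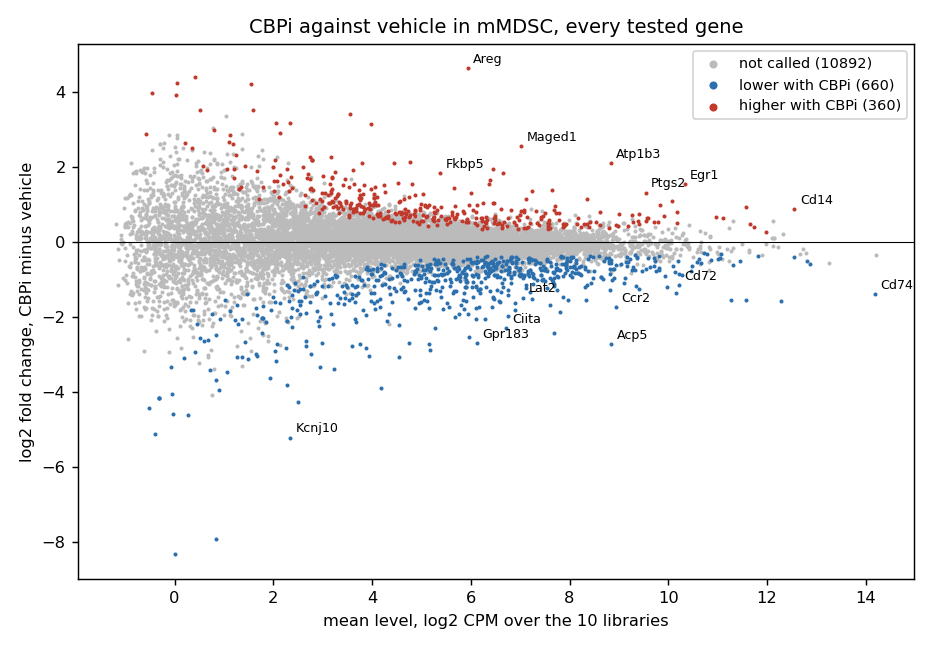
Each point is 1 of 11912 tested genes, with its mean level over the 10 mMDSC libraries (log2 CPM, x axis) and its log2 fold change, CBPi minus vehicle (y axis). Blue points (660) were called lower and red points (360) higher; at the highest levels the called points lie mostly below 0.

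The loss weighed more on abundant transcripts than the gain. Genes called lower held 18.4% to 21.0% of all CPM in the vehicle libraries and 11.3% to 13.5% in the CBPi libraries. Genes called higher held 4.08% to 4.59% and 7.49% to 8.05%. When tested genes were ranked by mean level and divided into 5 equal bins, 2.43% of the lowest bin and 11.4% of the highest were called lower. For calls higher the shares were 1.43% and 4.15%. The standard error had a median of 0.615 on the log2 scale in the lowest bin and 0.138 in the highest, so smaller changes could pass among abundant genes. In the highest bin 271 genes were lower and 99 higher, and 58 higher without vehicle 2.

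**Figure D2:**
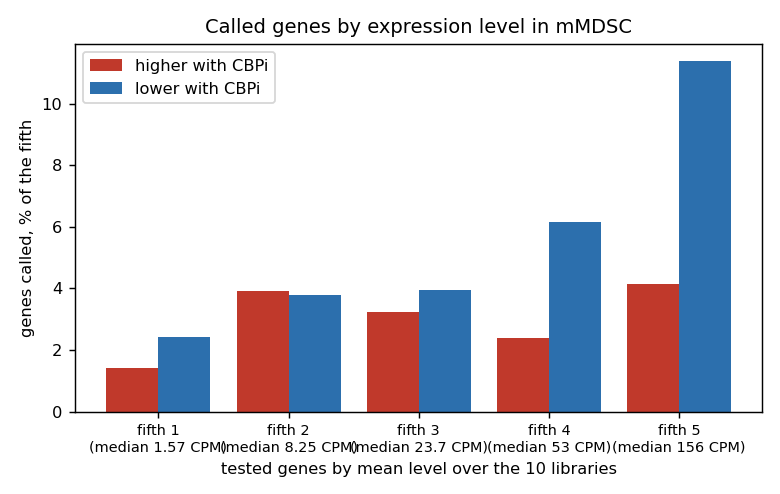
Bars give the percentage of tested genes called higher (red) or lower (blue) with CBPi in mMDSC, for 5 equal bins of the genes by mean level (x axis, median CPM of each bin). Calls lower rise from 2.43% in the lowest bin to 11.4% in the highest.

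Among called genes, the largest losses in CPM included transcripts of antigen presentation and lysosomal proteases. Apoe, an apolipoprotein of macrophages, had a mean of 21106 CPM in vehicle and 16726 CPM with CBPi but did not pass (-0.34 ± 0.13, adjusted p = 0.134). The invariant chain gene Cd74, the chaperone of class II molecules, lay between 18943 and 40381 CPM in vehicle and between 6279 and 16276 CPM with CBPi, without overlap. The class II gene H2-Ab1 fell by 4954 CPM in the mean and the class II chain gene H2-Eb1 fell by 2981 CPM. H2-Aa fell by 2410 CPM, and Ctss, the protease that trims the invariant chain, fell by 2961 CPM. Ctsc, which activates serine proteases of granules, fell by 0.49 ± 0.07 on the log2 scale (adjusted p = 0.0014), a call absent only in the fit over all 20 libraries of the series (adjusted p = 0.0824). Among the gains, the lipopolysaccharide coreceptor Cd14 was at 3032, 3444, 4433, 6686 and 3612 CPM in vehicle 1 to 5 and at 6859, 7400, 8410, 8427 and 7819 CPM in CBPi 6 to 10 (0.88 ± 0.18, adjusted p = 0.00999). The groups did not overlap, and vehicle 4 was close to the lowest CBPi library. Nfkbia, the inhibitor that retains NF-kB in the cytosol, gained 1919 CPM (0.94 ± 0.18, adjusted p = 0.00637), and Ppp1r15a, the phosphatase subunit that ends the integrated stress response, gained 917 CPM (0.68 ± 0.11, adjusted p = 0.00261).

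The genes of the drug targets were not called. Crebbp, which encodes CBP, was at 77.6, 73.4, 110, 160 and 118 CPM in vehicle 1 to 5 and at 137, 123, 147, 90.3 and 121 CPM in CBPi 6 to 10 (0.20 ± 0.21, adjusted p = 0.634). Ep300 was at 119 ± 20.9 CPM (SD, n = 5) and 133 ± 24.1 CPM (0.16 ± 0.16, adjusted p = 0.607). Of 17 acetyltransferase and BET genes 2 were higher: Brd2, a BET reader of acetylated histones (415 ± 29.0 to 574 ± 57.3 CPM, 0.47 ± 0.10, adjusted p = 0.0116), and Brd9, a subunit of a chromatin remodelling complex (0.57 ± 0.13, adjusted p = 0.0149), whose call did not hold in the 20-library fit (adjusted p = 0.0726).

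Across 42 gene lists grouped by function, 237 of the 949 tested members were called, and 783 called genes stood in no list. The lists were chosen with earlier results of these data known. List shares set beside the share over all tested genes are therefore descriptive only. For every list below that share is 5.54% lower and 3.02% higher, also where it is not repeated. Counts near it say nothing particular about a list. Among the lists, receptors of attractants, class II presentation and other immune receptors held mostly calls lower, and early response factors and interferon-stimulated genes mostly calls higher. No member was called in the lists of MHC class I presentation (22 tested, median -0.05), the respiratory chain (26 tested, median -0.245) and sterol and fatty acid synthesis (27 tested, median -0.09).

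**Figure D3:**
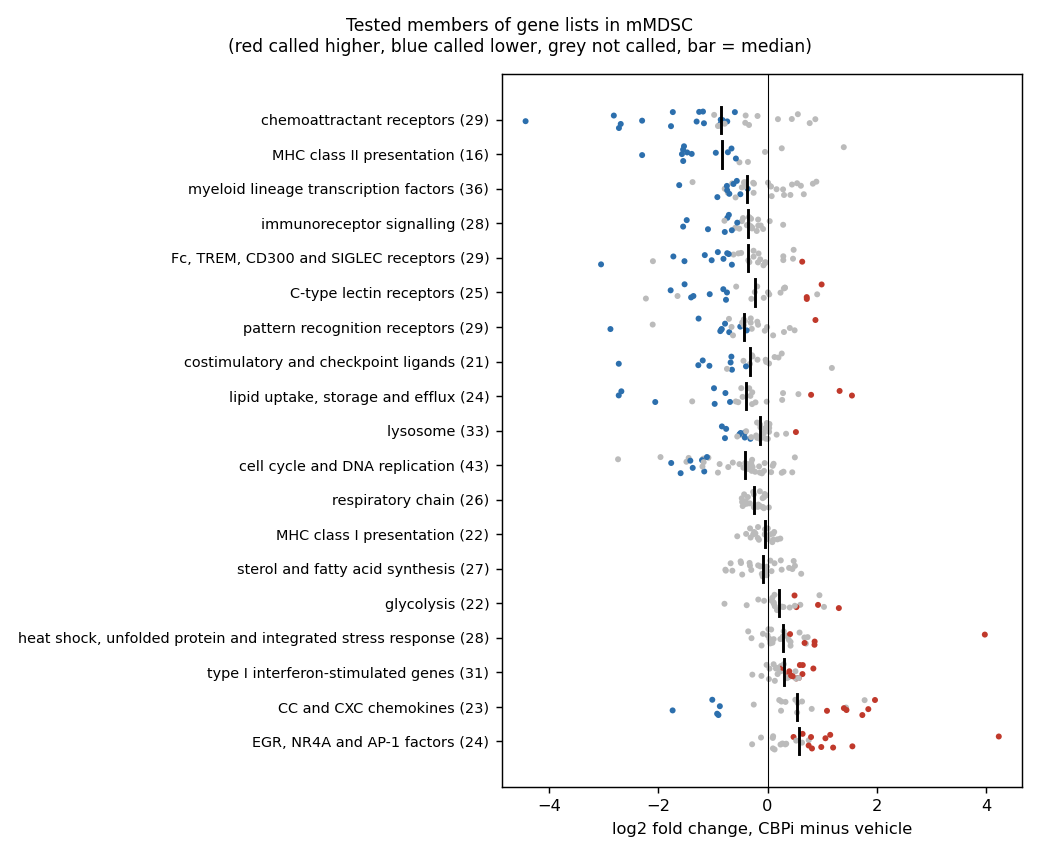
Each point is a tested member of the list named at the left (number tested in parentheses), placed by its log2 fold change, CBPi minus vehicle (x axis); blue was called lower, red higher, grey not called, and the black bar is the list's median. Medians run from -0.86 for chemoattractant receptors to 0.58 for EGR, NR4A and AP-1 factors, against 0.008 over all tested genes.

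Receptors by which myeloid cells sense attractants formed the list with the most calls lower. Of 29 tested members 16 were lower and none higher, against 5.54% lower over all tested genes, with a median of -0.86. Leaving out 1 library at a time gave 15 to 18. Gpr183 (chromosome 14, 121952331 to 121965193), the receptor for oxysterols that guides immune cells in lymphoid tissue, was at 94.7, 122, 111, 173 and 105 CPM in vehicle 1 to 5 and at 16.3, 14.1, 20.02, 21.7 and 21.9 CPM in CBPi 6 to 10 (-2.69 ± 0.19, adjusted p = 5.49e-06). Every CBPi library was below every vehicle library, and vehicle 4 was the highest. Ch25h, which makes the oxysterol precursor of the ligand of Gpr183, fell alongside from 171 ± 17.2 to 43.9 ± 14.2 CPM (-1.96 ± 0.19, adjusted p = 5.17e-05).

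The other members called lower covered chemokine, formyl peptide, complement, leukotriene and nucleotide receptors. Ccr1, which binds inflammatory CC chemokines, and Cx3cr1, the fractalkine receptor of patrolling monocytes, fell by 0.86 ± 0.11 (adjusted p = 0.000324) and 0.74 ± 0.13 (adjusted p = 0.00398) on the log2 scale. Cxcr3, the receptor of interferon-induced CXC chemokines, was at 16.4 to 35.5 CPM in vehicle and 1.78 to 5.77 CPM with CBPi (-2.72 ± 0.32, adjusted p = 0.000244). Both formyl peptide receptors, which detect bacterial and mitochondrial peptides, were lower: Fpr1 by -2.29 ± 0.34 (adjusted p = 0.00122) and Fpr2 by -1.77 ± 0.28 (adjusted p = 0.002). Of the nucleotide receptors, P2ry6 went from 355 ± 16.8 to 201 ± 17.2 CPM (-0.82 ± 0.09, adjusted p = 0.000201), and P2ry12 and P2ry13 were lower by -1.18 ± 0.20 (adjusted p = 0.00279) and -1.25 ± 0.19 (adjusted p = 0.00122). The receptors Gpr34 and Gpr35 and the leukotriene receptor Ltb4r1 were lower as well. In Gpr34 the CBPi libraries lay at 0.936 to 5.30 CPM and the vehicle libraries at 17.4 to 34.7 CPM, without overlap. Ccr9, at 1.21 ± 0.496 CPM in vehicle, lost its call under 4 alternatives, among them without CBPi 9 (adjusted p up to 0.0819).

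Adaptors and kinases behind activating and inhibitory receptors fell together with several of those receptors. In the list of immunoreceptor signalling 8 of 28 tested members were lower and none higher (median -0.36). Lat2 (chromosome 5, 134600103 to 134619783), a membrane adaptor of Fc receptor signalling, was at 191, 212, 200, 187 and 194 CPM in vehicle 1 to 5 and at 75.1, 72.1, 68.6, 70.7 and 66.6 CPM in CBPi 6 to 10 (-1.48 ± 0.09, adjusted p = 3.01e-06). The spread in each group was small beside the gap between them. Blnk, an adaptor for the kinase SYK, fell by 1.54 ± 0.14 (adjusted p = 4.01e-05), and Fgr, a SRC family kinase, by 1.09 ± 0.12 (adjusted p = 0.00017). The phosphatase Ptpn6, which opposes such kinases, fell by 0.78 ± 0.10 (adjusted p = 0.000401), and the exchange factor Vav1 and the adaptor Dok3 were also lower. Themis2 passed at -0.71 ± 0.17 (adjusted p = 0.0188) and lost its call without CBPi 6, without CBPi 10 and in the 20-library fit (adjusted p up to 0.0824).

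Receptors of the SLAM family bind members of their own family on neighbouring cells. They had no list here, and those given below do not stand for the family. Slamf9 (chromosome 1, 172458569 to 172478421) was at 290, 395, 307, 435 and 334 CPM in vehicle 1 to 5 and at 103, 90.1, 96.9, 93.0 and 105 CPM in CBPi 6 to 10 (-1.85 ± 0.13, adjusted p = 4.89e-06). Sh2d1b1, an adaptor of SLAM receptors, was at 19.1, 25.3, 20.9, 19.5 and 20.4 CPM in vehicle 1 to 5 and at 3.48, 2.67, 3.75, 2.39 and 3.31 CPM in CBPi 6 to 10 (-2.75 ± 0.20, adjusted p = 5.49e-06). In both genes the groups were far apart. Slamf7, Cd48 and Cd84, 3 adjacent tested genes of chromosome 1 chosen here after their values were seen, were lower by -1.56 ± 0.23 (adjusted p = 0.00116), -0.66 ± 0.14 (adjusted p = 0.0124) and -1.23 ± 0.12 (adjusted p = 7.68e-05). Ly9, of the same family, was higher (0.50 ± 0.13, adjusted p = 0.0271), a call lost in the 20-library fit, without vehicle 1, vehicle 5, CBPi 6, CBPi 8 or CBPi 9, and without the 3 libraries that stood apart (adjusted p up to 0.0877).

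Among Fc, TREM, CD300 and SIGLEC receptors, which read antibodies, lipids and sialic acids, 10 of 29 tested members were lower and 1 higher (median -0.35). The inhibitory sialic acid receptor Siglece went from 132 ± 13.7 to 46.0 ± 4.56 CPM (-1.52 ± 0.12, adjusted p = 1.1e-05). Cd33, another sialic acid receptor, was the member called higher, from 46.8 to 64.4 CPM in vehicle to 79.1 to 92.5 CPM with CBPi (0.63 ± 0.12, adjusted p = 0.00522). Cd300a, which binds exposed phospholipids, fell by 0.91 ± 0.10 (adjusted p = 0.000186), and the related Cd300lf, Cd300e and Cd300c2 were lower too. Treml4, which binds dying cells, fell by 1.72 ± 0.18 (adjusted p = 9.48e-05), and Trem3 by 1.15 ± 0.21 (adjusted p = 0.00406). Without vehicle 4 the list held 2 higher members.

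C-type lectin receptors, which bind sugars and class I molecules, had 8 of 25 tested members lower and 3 higher (median -0.23). Klra2 (chromosome 6, 131198970 to 131247716), a Ly49 receptor expressed by myeloid cells, was at 228, 232, 211, 244 and 213 CPM in vehicle 1 to 5 and at 78.2, 72.4, 88.2, 77.2 and 77.7 CPM in CBPi 6 to 10 (-1.52 ± 0.10, adjusted p = 3.01e-06). Clec5a, an activating receptor of monocytes, and Clec12a, an inhibitory receptor that senses uric acid crystals, fell by 1.36 ± 0.12 (adjusted p = 3.83e-05) and 1.06 ± 0.15 (adjusted p = 0.000732). Klra17, Clec4b1, Clec4a1 and Clec4a3 were lower too, and as members of clusters of close paralogs they may share reads. Higher calls in this list did not hold throughout. Clec10a (0.99 ± 0.23, adjusted p = 0.0162) lost its call in the 20-library fit (adjusted p = 0.514), and the mannose receptor Mrc1 (0.72 ± 0.17, adjusted p = 0.0212) lost it there and without vehicle 2 or vehicle 3 (adjusted p up to 0.123). Without vehicle 3 the list held 1 higher member. Cd72, an inhibitory lectin best known from B cells and not in the list, went from 1473 to 1752 CPM in vehicle to 671 to 798 CPM with CBPi (-1.15 ± 0.09, adjusted p = 1.19e-05).

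Pattern recognition receptors, which detect microbial products, had 9 of 29 tested members lower and 1, Cd14, higher (median -0.43). Tlr7, which senses single-stranded RNA in endosomes, was at 144, 166, 137, 114 and 198 CPM in vehicle 1 to 5 and at 40.4, 75, 45.9, 80.7 and 74.2 CPM in CBPi 6 to 10 (-1.26 ± 0.21, adjusted p = 0.00275), without overlap. Tlr1, a partner of Tlr2 in sensing lipopeptides, fell by 0.78 ± 0.13 (adjusted p = 0.0024), and Mefv, which encodes the inflammasome sensor pyrin, by 0.86 ± 0.13 (adjusted p = 0.0012). Tlr12, a sensor of parasite profilin, went from 63.4 ± 30.1 to 8.67 ± 2.38 CPM (-2.87 ± 0.31, adjusted p = 0.000135). Without vehicle 2, vehicle 3 or CBPi 10 only 5 members of the list were lower. Tlr2 itself (-0.50 ± 0.13, adjusted p = 0.0289) was among those whose call was lost, in the 20-library fit and without vehicle 1, vehicle 2, vehicle 3, vehicle 5, CBPi 8, CBPi 10 or the 3 libraries that stood apart (adjusted p up to 0.0761).

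**Figure D4:**
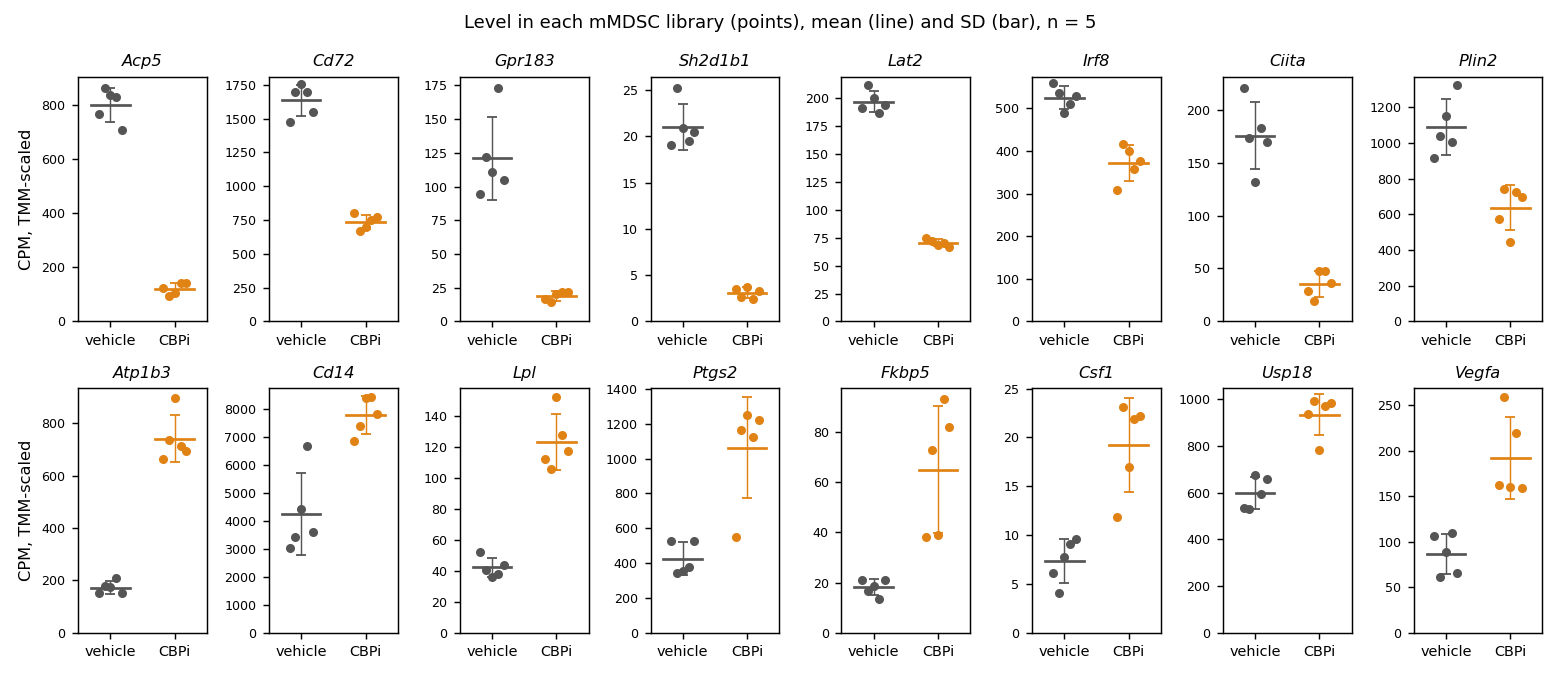
Points are the 5 vehicle (grey) and 5 CBPi (orange) mMDSC libraries for 16 genes, with TMM-scaled CPM on the y axis from 0, a line at the mean and bars of 1 SD (n = 5). The groups do not overlap in any of the 16 genes, although Ptgs2 in CBPi 6 (553 CPM) and Cd14 in vehicle 4 (6686 CPM) lie close to the other group.

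Class II presentation had members called lower from the coactivator to the presenting molecules, but H2-Oa, H2-Ob, Rfx5, Rfxank and Rfxap were not called. Of 16 tested members 11 were lower and none higher, against 5.54% lower over all tested genes, and the median was -0.84. Leaving out 1 library gave 10 or 11. Ciita, the coactivator that switches on class II genes, was at 221, 173, 132, 182 and 169 CPM in vehicle 1 to 5 and at 28.3, 19.1, 47.6, 47.3 and 36.5 CPM in CBPi 6 to 10 (-2.29 ± 0.24, adjusted p = 9.29e-05). H2-Aa and H2-Eb1, which encode class II chains, stand near each other on chromosome 17, and their promoters are shown because both hold the Y box through which the factor NF-Y takes part in class II transcription. The windows below are the 150 bases before the RefSeq start (assembly GRCm38.p6), 5′ to 3′ on the strand of the gene, with the letters CTGATTGG in capitals. They cover chr17:34287824-34287973 on the minus strand and chr17:34305717-34305866 on the plus strand, and the match begins 51 and 62 bases before the start.
H2-Aa: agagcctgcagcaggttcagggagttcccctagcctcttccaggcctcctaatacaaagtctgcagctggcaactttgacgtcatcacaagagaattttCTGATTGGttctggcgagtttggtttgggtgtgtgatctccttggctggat
H2-Eb1: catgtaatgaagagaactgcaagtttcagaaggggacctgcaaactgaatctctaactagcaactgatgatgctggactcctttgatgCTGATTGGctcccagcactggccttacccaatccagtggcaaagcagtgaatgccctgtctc
Searched on both strands in the 250 bases before the start, these letters were found in 4 of 13 class II genes of the list with a promoter entry (30.8%), in 6.23% of tested genes and in 4.43% of 27025 genes in the table. Of the 4, H2-Aa and H2-Eb1 were called lower, H2-Oa was not called and 1 was not tested. Among all called genes the letters were found in 3.44% of the lower and 8.19% of the higher. The core CCAAT was found in 11 of 13, in 40.6% of tested genes, in 34.0% of the lower and in 46.3% of the higher. Its reverse complement lies within CTGATTGG, so every match of those letters is also a match of the core. A match describes the letters only.

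H2-Aa was at 3684, 3403, 3219, 5656 and 2486 CPM in vehicle 1 to 5 and at 1031, 731, 2073, 1398 and 1164 CPM in CBPi 6 to 10 (-1.53 ± 0.27, adjusted p = 0.0034). H2-Eb1 fell to a like degree (-1.54 ± 0.24, adjusted p = 0.00162). In both, CBPi 8 was the highest CBPi library and vehicle 5 the lowest vehicle library, and the groups did not overlap. H2-DMb1 and H2-DMb2, paralogs that encode a chain of the peptide exchanger H2-DM and may share reads, were lower by -1.54 ± 0.22 (adjusted p = 0.000853) and -1.47 ± 0.21 (adjusted p = 0.000925). Marchf1, a ligase that removes class II from the surface, was lower too (-0.66 ± 0.15, adjusted p = 0.0135), with overlapping groups. Ifi30, which reduces disulfides in antigens, passed at -0.95 ± 0.23 (adjusted p = 0.0249) but not without vehicle 3, CBPi 7, CBPi 9 or CBPi 10 (adjusted p up to 0.066).

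Of 21 tested costimulatory and checkpoint ligands and receptors 8 were lower and none higher (median -0.32), and 5 to 7 were lower when 1 library was left out, with 5 without vehicle 1, vehicle 2, vehicle 5, CBPi 6, CBPi 9 or CBPi 10. Havcr2 (TIM-3, an inhibitory receptor) was at 127, 130, 148, 141 and 153 CPM in vehicle 1 to 5 and at 70.2, 62.3, 42.0, 83.1 and 49.5 CPM in CBPi 6 to 10 (-1.19 ± 0.17, adjusted p = 0.000957). Tnfrsf14 (HVEM) fell by 1.06 ± 0.17 (adjusted p = 0.0017) and Cd40, which receives help from T cells, by 0.65 ± 0.13 (adjusted p = 0.00812). Pdcd1lg2, the gene of PD-L2, was low and uneven in vehicle, at 16.8, 4.03, 2.70, 9.47 and 3.11 CPM, and lay at 0.803 to 1.49 CPM with CBPi (-2.72 ± 0.53, adjusted p = 0.00698). Cd274, the gene of PD-L1, was at 158, 94.2, 71.4, 96.7 and 94.8 CPM in vehicle 1 to 5 and at 52.7, 73.7, 74.7, 65.3 and 56.5 CPM in CBPi 6 to 10 (-0.68 ± 0.19, adjusted p = 0.0486). Its groups overlapped, and it passed with vehicle 3 left out but with no other single library left out (adjusted p up to 0.231 over all alternatives).

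Lineage transcription factors of myeloid cells had 9 of 36 tested members lower and none higher (median -0.38), and 5 without CBPi 9. Irf8, which directs monocyte and dendritic cell development, was at 560, 535, 489, 511 and 528 CPM in vehicle 1 to 5 and at 308, 416, 400, 358 and 375 CPM in CBPi 6 to 10 (-0.50 ± 0.10, adjusted p = 0.00869). The groups did not overlap. Irf5, a driver of inflammatory macrophage genes, fell by 0.62 ± 0.12 (adjusted p = 0.00704), the lipid-sensing receptors Pparg and Nr1h3 by 0.74 ± 0.14 each (adjusted p = 0.00652 and 0.00684), and Batf3, a factor of cross-presenting dendritic cells, by 1.62 ± 0.31 (adjusted p = 0.00607). Spi1, the gene of PU.1, was lower by -0.36 ± 0.10 (adjusted p = 0.0403), a call that did not hold under 9 alternatives, among them leaving out vehicle 2, vehicle 3, vehicle 4, CBPi 7, CBPi 8, CBPi 9 or CBPi 10 (adjusted p up to 0.171). Csf1r did not pass (-0.15 ± 0.18, adjusted p = 0.7).

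Secreted signals moved in both directions. Of 23 tested CC and CXC chemokines 6 were higher and 5 lower (median 0.54), and 2 were lower without CBPi 7 or CBPi 10 and 3 without vehicle 2, vehicle 4, CBPi 6 or CBPi 9. Higher were the neutrophil attractants Cxcl1 (65.6 to 168 CPM in vehicle, 225 to 339 CPM with CBPi, 1.40 ± 0.21, adjusted p = 0.00139) and Cxcl3 (1.73 ± 0.33, adjusted p = 0.00577). The eotaxin Ccl24 was at 14.1, 30.4, 33.6, 76.1 and 23.6 CPM in vehicle 1 to 5 and at 137, 120, 176, 140 and 120 CPM in CBPi 6 to 10 (1.96 ± 0.35, adjusted p = 0.00393), without overlap. Pf4, a chemokine of platelets and of some macrophages, was at 28.0 to 56.6 CPM in vehicle and 91.0 to 295 CPM with CBPi (1.84 ± 0.31, adjusted p = 0.00261). Pf4 is also a platelet marker, and it was the single member called among 5 tested erythroid and platelet markers. The sum over 12 such markers was 36.0 to 62.9 CPM in vehicle and 98.5 to 306 CPM with CBPi. This sum includes Pf4 itself and is mostly Pf4, so it is no separate reading of platelet RNA. The part of platelet RNA was not tested. Cxcl2 passed at 1.09 ± 0.27 (adjusted p = 0.0257) with overlapping groups, and its call was lost without vehicle 2, vehicle 3, vehicle 5, CBPi 6 or CBPi 8 and in the 20-library fit (adjusted p up to 0.0719). Lower was Cxcl16, a membrane-bound chemokine and scavenger receptor (1615 ± 158 to 882 ± 70.3 CPM, -0.87 ± 0.10, adjusted p = 0.000169), while the call of Cxcl9 (-1.74 ± 0.44, adjusted p = 0.0273) was lost without vehicle 1, vehicle 2, vehicle 4, CBPi 6, CBPi 7, CBPi 9 or CBPi 10 (adjusted p up to 0.0721).

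Among cytokines 3 of 24 tested members were higher and 5 lower (median 0.21). Without vehicle 4 the higher members numbered 8. Il6 was at 48.0, 60.7, 107, 137 and 74.4 CPM in vehicle 1 to 5 and at 199.7, 178, 288, 206 and 222 CPM in CBPi 6 to 10 (1.36 ± 0.25, adjusted p = 0.00533). Vehicle 4 was the highest vehicle library, and still below every CBPi library. Csf1, the ligand of Csf1r, went from 4.12 to 9.56 CPM in vehicle to 11.8 to 23.2 CPM with CBPi (1.39 ± 0.26, adjusted p = 0.00582), and Il23a, a subunit of interleukin-23, from 10.7 ± 3.30 to 27.2 ± 8.29 CPM (1.34 ± 0.26, adjusted p = 0.00613). Ligands that support B cells were lower: Tnfsf13b (BAFF) by -1.57 ± 0.28 (adjusted p = 0.00387) and Tnfsf13 (APRIL) by -1.46 ± 0.15 (adjusted p = 8.87e-05). Tnfsf13 overlaps a readthrough gene with the neighbouring Tnfsf12 (-0.97 ± 0.13, adjusted p = 0.000732), and their reads may be shared. The pro-inflammatory cytokines Tnf (0.46 ± 0.17, adjusted p = 0.133) and Il1b (0.21 ± 0.22, adjusted p = 0.619) did not pass. Il16, a precursor of a CD4 ligand, fell by 1.47 ± 0.12 (adjusted p = 2.13e-05).

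On the receiving side, 4 of 32 tested cytokine receptor genes were lower and 1 higher (median -0.23). Over all tested genes 5.54% were lower and 3.02% higher. Il21r was at 219.5, 199.7, 177, 183 and 196 CPM in vehicle 1 to 5 and at 65.5, 86.6, 91.1, 89.3 and 85.9 CPM in CBPi 6 to 10 (-1.22 ± 0.12, adjusted p = 5.17e-05). The interferon receptor chains Ifngr2 and Ifnar2 fell by 0.55 ± 0.09 (adjusted p = 0.00222) and 0.54 ± 0.11 (adjusted p = 0.00712). The decoy receptor Il1r2, the member called higher (0.78 ± 0.20, adjusted p = 0.0297), lost its call in the 20-library fit and without vehicle 1, vehicle 2, vehicle 3, CBPi 6, CBPi 9 or CBPi 10 (adjusted p up to 0.0824). In each of those 6 cases the list held 0 higher members, and without vehicle 5 or CBPi 8 it held 2.

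Of 3 tested EGF receptor ligands, 2 were higher. Areg (amphiregulin) was at 1.25, 4.12, 4.01, 9.96 and 4.38 CPM in vehicle 1 to 5 and at 94.0, 87.5, 125, 154 and 128 CPM in CBPi 6 to 10 (4.64 ± 0.41, adjusted p = 3.57e-05), with no library of one group near the other. Hbegf went from 2.41 to 5.40 CPM to 6.37 to 17.9 CPM (1.78 ± 0.32, adjusted p = 0.00433). Vegfa, the main growth factor of blood vessels, went from 61.7 to 110 CPM to 159 to 259 CPM (1.15 ± 0.20, adjusted p = 0.00325).

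Early response factors, which cells make within minutes of a stimulus, were the list with the most calls higher beside interferon-stimulated genes. Of 24 tested EGR, NR4A and AP-1 genes 11 were higher and none lower, against 3.02% higher over all tested genes, with a median of 0.58 and 9 to 13 higher when 1 library was left out. Egr3 was at 0.124 to 0.398 CPM in vehicle and 3.34 to 6.48 CPM with CBPi (4.23 ± 0.43, adjusted p = 8.7e-05). Jun went from 510 to 765 CPM to 836 to 1715 CPM (0.98 ± 0.18, adjusted p = 0.00433), Fosb from 32.6 to 56.5 CPM to 75.8 to 139.6 CPM (1.06 ± 0.22, adjusted p = 0.00885), and Jund from 287 ± 37.9 to 503 ± 49.0 CPM (0.81 ± 0.11, adjusted p = 0.000864). These encode subunits of AP-1, and in each the groups were apart. The orphan nuclear receptor Nr4a2 was at 135, 151, 186, 361 and 187 CPM in vehicle 1 to 5 and at 438, 425, 488, 464 and 439 CPM in CBPi 6 to 10 (1.15 ± 0.22, adjusted p = 0.00693). Nr4a1 (0.64 ± 0.16, adjusted p = 0.0248) overlapped between the groups and lost its call without vehicle 2, vehicle 3, CBPi 7, CBPi 9 or CBPi 10 (adjusted p up to 0.0711).

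Promoters of Areg and Nr4a2 are shown because both genes rose and both windows hold letters of the cAMP response element, to which the factor CREB binds and through CREB the protein CBP. The windows are the 150 bases before the RefSeq start (GRCm38.p6), 5′ to 3′ on the gene's strand. For Areg (chr5:91139449-91139598, plus strand) the full element TGACGTCA is in capitals and begins 61 bases before the start. For Nr4a2 (chr2:57124004-57124153, minus strand) capitals mark the short element TGACG or its reverse complement, at 3 places.
Areg: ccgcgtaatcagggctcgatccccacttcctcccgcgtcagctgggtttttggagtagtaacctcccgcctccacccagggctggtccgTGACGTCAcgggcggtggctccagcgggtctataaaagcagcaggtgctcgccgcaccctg
Nr4a2: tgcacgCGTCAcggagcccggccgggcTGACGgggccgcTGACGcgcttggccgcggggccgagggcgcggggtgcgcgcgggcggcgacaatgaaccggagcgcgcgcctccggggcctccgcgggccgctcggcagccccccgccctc
In the 250 bases before the start, searched on both strands, the short element was found in 14 of 19 genes of the EGR, NR4A and AP-1 list with a promoter entry (73.7%), against 30.8% of tested genes, 27.4% of called higher genes and 17.0% of called lower genes. The full element, which contains the short element, was found in 4.98% of the higher, 1.53% of the lower and 3.15% of tested genes. It was found in 1.77% of all 27025 genes. In the EGR, NR4A and AP-1 list 1 of 19 genes held the full element (5.26%), and this was Maff, which was not called. The full element was also found in 1 of 13 class II genes (7.69%): the window of H2-Aa, which fell, holds it in lower case. These shares describe letters, not binding.

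Genes that glucocorticoids and MAP kinases induce moved in part. Fkbp5, a chaperone that restrains the glucocorticoid receptor, was at 21.1, 16.6, 18.5, 13.4 and 20.9 CPM in vehicle 1 to 5 and at 38, 72.9, 38.9, 93.4 and 82.2 CPM in CBPi 6 to 10 (1.84 ± 0.26, adjusted p = 0.00091). The groups were apart, and CBPi 6 and CBPi 8, which stood apart on the second principal component, were the lowest of the CBPi libraries. Errfi1, which inhibits the EGF receptor, rose by 1.05 ± 0.15 (adjusted p = 0.00115), whereas Sgk1, a kinase of ion transport, fell from 749 ± 73.9 to 352 ± 113 CPM (-1.09 ± 0.19, adjusted p = 0.00355). Of the 17 tested glucocorticoid-responsive genes 3 were higher and 2 lower, and without vehicle 4 5 were higher. Of 15 tested MAP kinase feedback genes 2 were higher and 1 lower (median 0.23), and 1 was higher without vehicle 1, vehicle 2, vehicle 3, vehicle 5, CBPi 7, CBPi 9 or CBPi 10. The phosphatase Dusp4, which ends MAP kinase signalling, was lower (-1.36 ± 0.26, adjusted p = 0.00561), but not in the 20-library fit (adjusted p = 0.0945). Its relative Dusp5 was higher with overlapping groups (0.68 ± 0.20, adjusted p = 0.0489) and lost that call under 10 alternatives, among them each of those 7 libraries left out (adjusted p up to 0.115). Among linker histones and histone demethylases 3 of 17 tested members were higher. The demethylase Kdm5b, which removes methyl groups from histone H3 at lysine 4, went from 15.8 to 34.9 CPM to 63.4 to 83.1 CPM (1.44 ± 0.19, adjusted p = 0.000596). The linker histone H1f2 went from 5.16 ± 1.21 to 22.3 ± 11.3 CPM (2.11 ± 0.35, adjusted p = 0.0024). Transcripts of replication-dependent histones mostly lack a poly-A tail, and the labels give poly-A-selected RNA.

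Type I interferon-stimulated genes had 11 of 31 tested members higher and none lower (median 0.30), with changes of modest size. The count was 6 or 7 without vehicle 1, vehicle 2, vehicle 5, CBPi 7 or CBPi 9, 16 without vehicle 4, CBPi 6 and CBPi 8 together, and 3 in the 20-library fit. Usp18, a brake on the interferon receptor, was at 535, 529, 677, 594 and 658 CPM in vehicle 1 to 5 and at 937, 995, 785, 973 and 986 CPM in CBPi 6 to 10 (0.64 ± 0.11, adjusted p = 0.0025). Mx2, an antiviral GTPase, rose by 0.84 ± 0.15 (adjusted p = 0.00488) and Irf9, a subunit of the factor ISGF3, by 0.43 ± 0.09 (adjusted p = 0.0132). The calls of Oasl2 (0.57 ± 0.09, adjusted p = 0.00122) and Ifit1 (0.64 ± 0.12, adjusted p = 0.0048) were lost in the 20-library fit alone. Gbp3, an interferon-induced GTPase of another list, was lower (-0.77 ± 0.12, adjusted p = 0.00151). Of 24 tested NF-kB genes 3 were higher and 3 lower (median -0.06). Nfkbid, an atypical inhibitor, rose by 0.54 ± 0.11 (adjusted p = 0.00936), and the adaptor Traf1, the coactivator Bcl3 and the inhibitor Tnip1 fell by 1.05 ± 0.16 (adjusted p = 0.0017), 0.75 ± 0.12 (adjusted p = 0.00196) and 0.83 ± 0.16 (adjusted p = 0.00582).

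Effectors through which MDSC suppress T cells had some members called. Of 25 tested members 1 was higher and 3 lower (median -0.15), against 3.02% higher and 5.54% lower over all tested genes. Without vehicle 2 or CBPi 9 the list held 1 lower member. Ptgs2, the enzyme that starts prostaglandin E2 synthesis, was at 530, 344, 354, 375 and 528 CPM in vehicle 1 to 5 and at 553, 1162, 1252, 1122 and 1222 CPM in CBPi 6 to 10 (1.32 ± 0.21, adjusted p = 0.00221). CBPi 6 was barely above vehicle 1, and the other 4 CBPi libraries were far above. Ncf1, a subunit of the phagocyte NADPH oxidase, fell from 220 ± 36.2 to 121 ± 18.6 CPM (-0.87 ± 0.15, adjusted p = 0.00275). The catalytic subunit gene Cybb (-0.44 ± 0.11, adjusted p = 0.0228) lost its call without vehicle 1, vehicle 2, vehicle 5 or CBPi 9 and in the 20-library fit (adjusted p up to 0.363). Arg1 (arginase) was at 17.0, 38.5, 33.7, 3.34 and 25.7 CPM in vehicle 1 to 5 and at 80.9, 42.1, 26.6, 28.1 and 30.6 CPM in CBPi 6 to 10 (0.82 ± 0.50, adjusted p = 0.368). Nos2, which makes nitric oxide, was at 34.0, 4.60, 9.03, 4.21 and 11.7 CPM and at 10.6, 32.0, 16.3, 21.4 and 11.4 CPM (0.53 ± 0.53, adjusted p = 0.61). Both overlapped between the groups. Il10 (-0.21 ± 0.26, adjusted p = 0.687) and Tgfb1 (-0.15 ± 0.10, adjusted p = 0.407) did not pass either.

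Proteases of the pericellular space changed in both directions. Plau, the gene of urokinase, was at 388, 353, 327, 288 and 387 CPM in vehicle 1 to 5 and at 52.8, 74.7, 49.7, 74.4 and 75.2 CPM in CBPi 6 to 10 (-2.42 ± 0.15, adjusted p = 3.01e-06). Of 17 tested urokinase and coagulation genes 5 were lower and 1 higher (median 0.045). Coagulation factor gene F10 fell from 97.7 ± 22.5 to 26.0 ± 3.48 CPM (-1.91 ± 0.17, adjusted p = 3.83e-05), while F3, the tissue factor that starts coagulation, rose (1.41 ± 0.32, adjusted p = 0.0146) with overlapping groups. Among metalloproteases and their inhibitors 3 of 21 tested members were higher and 4 lower (median 0.02). The collagenase Mmp13 went from 22 to 51.4 CPM to 96.6 to 146 CPM (1.67 ± 0.20, adjusted p = 0.000289). Timp2, an inhibitor, and Mmp14, which together activate another gelatinase, fell by 1.28 ± 0.12 (adjusted p = 4.21e-05) and 0.73 ± 0.12 (adjusted p = 0.00229). Of integrins and adhesion genes 3 of 25 tested members were lower and 1 higher, against 5.54% lower and 3.02% higher over all tested genes. Itgax (CD11c) was at 334 to 573 CPM in vehicle and 164 to 227 CPM with CBPi (-1.19 ± 0.16, adjusted p = 0.000596). Selplg, the ligand of P-selectin, was lower by -0.71 ± 0.11 (adjusted p = 0.00151), and the tetraspanin Cd9 higher by 1.00 ± 0.16 (adjusted p = 0.00201).

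The gene with the smallest p among those called lower was Acp5 (chromosome 9, 22126727 to 22135746), the tartrate-resistant acid phosphatase of osteoclasts and macrophages. It was at 764, 863, 834, 829.5 and 708 CPM in vehicle 1 to 5 and at 122, 95.3, 106, 143 and 140.5 CPM in CBPi 6 to 10 (-2.72 ± 0.13, adjusted p = 4.8e-07). Every CBPi library was far below every vehicle library. Among genes called higher the smallest p was that of Atp1b3 (chromosome 9, 96332655 to 96364431), a beta subunit of the sodium pump. It was at 151, 177, 175, 211 and 150.2 CPM in vehicle 1 to 5 and at 665, 734, 895, 714 and 695 CPM in CBPi 6 to 10 (2.10 ± 0.13, adjusted p = 2.95e-06). Of 13 tested potassium channel and sodium pump genes Atp1b3 alone was higher and 3 were lower, among them the inward rectifier Kcnj10, at 13.6, 8.24, 10.6, 3.40 and 13 CPM in vehicle and 0.789 CPM or less with CBPi (-5.21 ± 0.87, adjusted p = 0.00261), and the proton channel Hvcn1 (-1.58 ± 0.31, adjusted p = 0.00686). Ntpcr, a nucleoside triphosphatase, was lower by -1.41 ± 0.11 (adjusted p = 1.06e-05), and Atg16l2, a relative of an autophagy factor, higher by 1.14 ± 0.14 (adjusted p = 0.000322).

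Genes of lipid handling changed in both directions. Of 24 tested members 7 were lower and 3 higher (median -0.40), Acp5 among the lower as a gene of lipid-laden macrophages. Lpl, the secreted lipase that releases fatty acids from lipoproteins, was at 52.3, 40.9, 36.0, 38.2 and 43.5 CPM in vehicle 1 to 5 and at 113, 106, 152, 128 and 117 CPM in CBPi 6 to 10 (1.54 ± 0.14, adjusted p = 4.01e-05), without overlap. Hilpda, an inhibitor of intracellular lipolysis, rose by 1.32 ± 0.17 (adjusted p = 0.000536), though not in the 20-library fit (adjusted p = 0.0611). Plin2, which coats lipid droplets, went from 917 to 1325 CPM to 446 to 743 CPM (-0.77 ± 0.15, adjusted p = 0.00658). The cholesterol exporter Abcg1 and the apolipoprotein Apoc2, a cofactor of Lpl, fell by 0.69 ± 0.12 (adjusted p = 0.00398) and 2.05 ± 0.22 (adjusted p = 0.000135). The exporter Abca1 was higher (0.80 ± 0.19, adjusted p = 0.0215) but lost its call under 3 alternatives (adjusted p up to 0.0945). Lysosomal genes had 8 of 33 tested members lower (median -0.14), and 4 or 5 lower without vehicle 2, vehicle 3, vehicle 5, CBPi 6, CBPi 8 or CBPi 9. The cathepsins Ctsh and Ctsz fell by 0.76 ± 0.11 (adjusted p = 0.000864) and 0.51 ± 0.09 (adjusted p = 0.00309).

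Genes of stress and oxygen responses had some members higher, against 3.02% higher over all tested genes. Of 28 tested heat shock, unfolded protein and integrated stress genes 5 were higher and none lower (median 0.29), and 8 without vehicle 4. The co-chaperone Dnajb1 went from 84.5 to 113 CPM to 152 to 191 CPM (0.86 ± 0.11, adjusted p = 0.00058), and Asns, which makes asparagine, rose by 0.86 ± 0.16 (adjusted p = 0.00577). Of 22 tested oxygen sensing and other HIF targets 4 were higher (median 0.37), and 2 without vehicle 2, vehicle 3 or CBPi 7. Ndrg1, a hypoxia-responsive gene, went from 34.6 to 51.8 CPM to 60.4 to 86.1 CPM (0.84 ± 0.15, adjusted p = 0.00362). Of 22 tested glycolysis genes 4 were higher (median 0.22), but 1 without vehicle 2, 2 without vehicle 5 or CBPi 8 and none in the 20-library fit. Cell cycle and replication genes had 7 of 43 tested members lower and none higher (median -0.41). Ccnd1 (cyclin D1) was at 41.9, 46.0, 41.8, 51.5 and 44.0 CPM in vehicle 1 to 5 and at 19.1, 11.9, 17.7, 11 and 6.76 CPM in CBPi 6 to 10 (-1.76 ± 0.24, adjusted p = 0.000769). Rrm2, a subunit of ribonucleotide reductase, and Birc5 (survivin) fell by 1.41 ± 0.30 (adjusted p = 0.0115) and 1.59 ± 0.36 (adjusted p = 0.0149). The count of the list was 3 or 4 without vehicle 1, vehicle 2, vehicle 5, CBPi 6, CBPi 7, CBPi 9 or CBPi 10. Bcl2l1, which protects cells from death, was lower (-0.87 ± 0.18, adjusted p = 0.00822).

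Where the response of mMDSC differed from that of gMDSC was tested as the difference of their log2 fold changes over all 20 libraries. It passed for 92 of 12688 genes (0.725%), 29 with a higher and 63 with a lower value in mMDSC, and 1454 had an unadjusted p under 0.05. Leaving out the mMDSC library CBPi 10 gave 10 higher, and leaving out the gMDSC library CBPi 7 gave 23 lower. Of these 92, 24 kept their call under all 24 alternatives, among them each gene named in this comparison. With a lower value in mMDSC the 6 smallest p were those of chaperone genes and of genes known to respond to hypoxia. The inducible heat shock gene Hspa1a was at 67.4 and 70.8 CPM in vehicle and CBPi mMDSC and at 44.6 and 731 CPM in vehicle and CBPi gMDSC, a difference of -3.96 ± 0.46 (adjusted p = 0.00026). Its near-identical neighbour Hspa1b gave -3.94 ± 0.49 (adjusted p = 0.000398), and their reads may be shared. Both showed no called change in mMDSC (0.07 ± 0.27 and 0.05 ± 0.32). The oxidase Ero1a, the glycolytic regulator Pfkfb3, the collagen hydroxylase P4ha1 and Ndrg1 had differences of -2.81 ± 0.40 (adjusted p = 0.00153), -2.37 ± 0.35 (adjusted p = 0.00274), -1.69 ± 0.27 (adjusted p = 0.00339) and -1.58 ± 0.25 (adjusted p = 0.00339), and each had its larger fold change in gMDSC. Ero1a had passed in the fit of mMDSC alone and did not in the 20-library fit (adjusted p = 0.222), nor without vehicle 4, CBPi 6 and CBPi 8.

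The 6 smallest p with a higher value in mMDSC included genes that fell in gMDSC. The lectin Clec4n (dectin-2) had a log2 fold change of 0.33 in mMDSC and -1.88 in gMDSC, a difference of 2.20 ± 0.30 (adjusted p = 0.00148). Fam122a, at 0.26 and -1.81, differed by 2.07 ± 0.33 (adjusted p = 0.00339). Mefv fell in both populations, by 0.86 in mMDSC and 2.30 in gMDSC (difference 1.44 ± 0.23, adjusted p = 0.00339). Mmp9, a gelatinase abundant in neutrophils, rose by 2.28 in mMDSC, from 2.64 to 12.8 CPM, against 0.37 in gMDSC, from 756 to 978 CPM (difference 1.91 ± 0.35, adjusted p = 0.0142). Neutrophil markers summed to 539 to 699 CPM in vehicle mMDSC and 321 to 548 CPM in CBPi mMDSC, and the part of neutrophil RNA was not tested. The oxysterol-sensing nuclear receptor Nr1h3 fell in mMDSC (-0.73) and rose in gMDSC (0.59), a difference of -1.32 ± 0.26 (adjusted p = 0.0175). Adam19, a membrane protease, fell from 10.4 to 1.32 CPM in mMDSC and stood at 20.5 and 18.6 CPM in gMDSC (difference -2.82 ± 0.55, adjusted p = 0.0175). Of the 360 genes higher in mMDSC, 152 were also higher in gMDSC and 1 lower, where 6.87% of 12688 genes were higher. Of the 660 lower in mMDSC, 382 were also lower in gMDSC and 10 higher, where 10.3% were lower. The 2 comparisons contrast different libraries, and whether these share mice is not known. The gMDSC calls came from the fit over all 20 libraries, whose estimate of spread for each gene also used the mMDSC libraries. The 2 sets of calls are therefore not independent. The difference was called for 17 of the 360 and 24 of the 660.

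**Figure D5:**
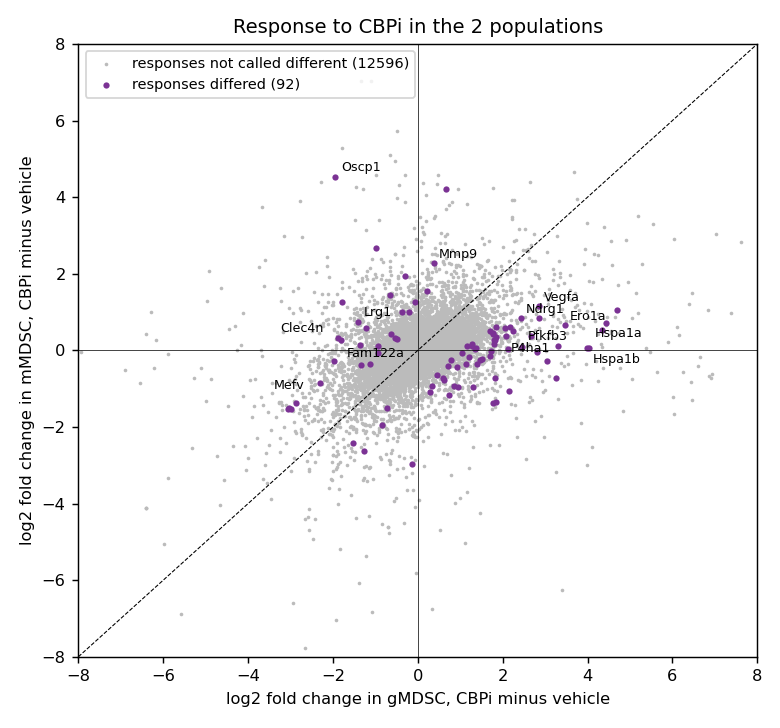
Each point is 1 of 12688 tested genes, with its log2 fold change (CBPi minus vehicle) in gMDSC on the x axis and in mMDSC on the y axis, from the fit over 20 libraries. The dashed line marks equal responses and 4 genes lie outside the axes. The 92 purple genes differed between the populations, among them Hspa1a, Hspa1b and Ero1a, which lie far to the right at little change in mMDSC.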

How the data were processed

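RNA-seq of mMDSC and gMDSC sorted from mouse tumours gave 20 libraries, 5 per cell type and treatment. The authors aligned reads with GSNAP to GRCm38, per the submitters' processing notes, which name no version. For the counting program, its annotation and its strand setting the sources used here give nothing, so overlapping genes and close paralogs may share reads. The deposited files, 1 per library, hold whole-number counts per gene, not normalized, and the authors' RPKM values, per kb of the listed width and per M reads of a larger library total. RPKM served only to compare that total with the summed counts. Symbols, coordinates and promoters came from RefSeq tables (GRCm38.p6), which matched 21647 of 23090 gene IDs.

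Counts of the 10 mMDSC libraries (13.51 to 26.64 M each) were fitted in R 4.3.3 with edgeR 4.0.16 (TMM, filterByExpr with a minimum count of 10 and total of 15, glmQLFit and glmQLFTest), and a gene was called at a Benjamini-Hochberg adjusted p under 0.05. The SE is the log2 fold change divided by the square root of F. The difference between cell types was the interaction in a fit over all 20 libraries. The test was run on simulated data with 11702 genes, of which 58, 72 and 65 were changed 1.5-fold, 2-fold and 4-fold. Of these 5.17%, 50% and 89.2% were called. No 2 libraries of a group agreed within counting noise (lowest chi-square over its degrees of freedom, 21.46).

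Genes named were the 12 with the smallest p in each direction with a group mean of at least 10 CPM, the 8 largest gains and losses in CPM, up to 3 called members of each of 42 lists, a fixed set (Crebbp, Ep300, Arg1, Nos2, Cd274, Il6, Ccr2, Ciita, Areg, Plau, Irf8, Spi1 and Csf1r), and the 6 smallest p of the difference in each direction. Other genes given are members of these lists, marker genes of 9 lists or genes chosen after their values were seen. The comparison, lists and genes were chosen with earlier results of these data known. Alternatives were DESeq2 size factors, no or a stricter filter, DESeq2 1.42.0, limma 3.58.1 voom, the 20-library fit, each library left out, and, chosen after seeing the data, vehicle 4, CBPi 6 and CBPi 8 left out together. Figures used matplotlib 3.10.9. Some genes of the lists are not reported here.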

Additional observations from a re-analysis of the deposited data

Results flagged for a closer look

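Among named genes, 15 of 294 groups of 5 libraries (5.10%) held a library far from the other 4, with a gap above 0.71 of the whole range (Dixon). Chance flags about 1 in 20 groups. The far library was the highest of its group for 10 genes. Trp53i11 was at 33.2 CPM in CBPi 7, Nr1h3 was at 260.0 CPM in vehicle 1, Bmp4 was at 1.28 CPM in CBPi 8, Tnfrsf14 was at 39.3 CPM in CBPi 7 and Cxcl9 was at 92.8 CPM in CBPi 8. Plk2 was at 276 CPM in vehicle 5, Nop56 was at 167 CPM in CBPi 6, Arg1 was at 80.9 CPM in CBPi 6, Nos2 was at 34 CPM in vehicle 1 and Fam122a was at 65.2 CPM in vehicle 4. It was the lowest for 5 genes. Brd9 was at 27.3 CPM in vehicle 5 and Il21r was at 65.5 CPM in CBPi 6. Ptgs2 was at 553 CPM in CBPi 6, Ero1a was at 50.7 CPM in vehicle 4 and Usp18 was at 785 CPM in CBPi 8. CBPi 6 was the far library in 4 of the 15 groups, CBPi 8 in 3, and CBPi 7, vehicle 1, vehicle 4 and vehicle 5 in 2 each.

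For 28 named genes the log2 fold change with CBPi differed between mMDSC and gMDSC (interaction term of edgeR's fit over 20 libraries, 5 per group). Each is given with its value in mMDSC, then in gMDSC, then the difference with its SE. For 14 of them the call held under all 24 alternatives. Lower in mMDSC among these were Nr1h3 (-0.73 and 0.59, difference -1.32 ± 0.26, adjusted p = 0.0175), Adam19 (-2.97 and -0.15, difference -2.82 ± 0.55, adjusted p = 0.0175), Ndrg1 (0.84 and 2.43, difference -1.58 ± 0.25, adjusted p = 0.00339), Ero1a (0.65 and 3.46, difference -2.81 ± 0.40, adjusted p = 0.00153), Hspa1a (0.07 and 4.03, difference -3.96 ± 0.46, adjusted p = 0.00026), Hspa1b (0.06 and 3.997, difference -3.94 ± 0.49, adjusted p = 0.000398), Pfkfb3 (0.10 and 2.47, difference -2.37 ± 0.35, adjusted p = 0.00274) and P4ha1 (0.38 and 2.07, difference -1.69 ± 0.27, adjusted p = 0.00339). Higher in mMDSC were Mefv (-0.86 and -2.30, difference 1.44 ± 0.23, adjusted p = 0.00339), Clec4n (0.33 and -1.88, difference 2.20 ± 0.30, adjusted p = 0.00148), Oscp1 (4.53 and -1.94, difference 6.47 ± 0.98, adjusted p = 0.00307), Fam122a (0.26 and -1.81, difference 2.07 ± 0.33, adjusted p = 0.00339), Mmp9 (2.28 and 0.37, difference 1.91 ± 0.35, adjusted p = 0.0142) and Lrg1 (0.75 and -1.40, difference 2.15 ± 0.40, adjusted p = 0.0148). Oscp1 was too low to be tested in the fit of mMDSC alone. Hspa1a and Hspa1b are near-identical and may share reads.

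The other 14 differences lost their call under at least 1 alternative. Lower in mMDSC were Plau (-2.41 and -1.54, difference -0.87 ± 0.20, adjusted p = 0.0442), Klra2 (-1.51 and -0.73, difference -0.78 ± 0.17, adjusted p = 0.0355), Dusp4 (-1.35 and 1.84, difference -3.19 ± 0.65, adjusted p = 0.0247), Vegfa (1.16 and 2.85, difference -1.69 ± 0.38, adjusted p = 0.04), Tpi1 (0.50 and 1.70, difference -1.20 ± 0.26, adjusted p = 0.0355), Ch25h (-1.95 and -0.83, difference -1.12 ± 0.25, adjusted p = 0.0427), Sgk1 (-1.08 and 0.29, difference -1.38 ± 0.32, adjusted p = 0.0442) and Nos2 (0.54 and 4.34, difference -3.81 ± 0.73, adjusted p = 0.0175). Higher in mMDSC were Lpl (1.55 and 0.21, difference 1.34 ± 0.29, adjusted p = 0.0354), Cd74 (-1.37 and -2.86, difference 1.49 ± 0.33, adjusted p = 0.0355), H2-Eb1 (-1.53 and -3.07, difference 1.54 ± 0.34, adjusted p = 0.0355), H2-Aa (-1.51 and -3.03, difference 1.52 ± 0.36, adjusted p = 0.0487), Egr3 (4.22 and 0.67, difference 3.55 ± 0.77, adjusted p = 0.0344) and Cd9 (1.02 and -0.38, difference 1.39 ± 0.32, adjusted p = 0.0438). The difference for Nos2 was lost in the fit with a replicate block alone, and that for Dusp4 without the gMDSC library CBPi 7. The rest were lost in 7 to 16 of the fits that left out 1 library.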

How the results depend on the processing

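In every alternative more genes were called lower than higher in mMDSC. DESeq2 called 726 genes higher and 1012 lower in mMDSC, with 155 higher in the top bin (the highest of 5 by mean level), and the fit over all 20 libraries called 165 higher, 46 of them in the top bin, with 51 list members higher. Leaving out 1 library gave 221 (without vehicle 2) to 448 (without vehicle 4) genes higher and 473 to 695 lower, 58 to 129 higher and 192 to 282 lower in the top bin, and 60 to 113 list members higher and 116 to 156 lower. Only 463 of the 1020 calls held under all 17 alternatives, so single genes near the threshold depend on which libraries enter. For the difference between mMDSC and gMDSC, DESeq2 called 104 higher and 198 lower, and leaving out 1 library gave 10 to 32 higher and 23 to 85 lower. The number in the titles is shared by 1 mMDSC and 1 gMDSC library, and a fit with this replicate block called 19 higher and 33 lower. Deviations of same-numbered libraries correlated at -0.031 to 0.168, and 4 of 10 correlated best with their own number. These values cannot settle whether same-numbered libraries came from 1 mouse. The main test of the difference did not use the pairing. The biological coefficient of variation was 34.2%. On simulated data 5.17% of 58 genes changed 1.5-fold were called. Fewer genes were called there (103) than in the data (1020), which makes the adjusted threshold stricter. The simulated share therefore need not hold for small changes in the data.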

Other observations

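Several called genes stand beside one another. Among 11606 pairs of neighbouring tested genes, both were lower in 107 and both higher in 20, and 23 runs held at least 3 neighbours with the same call. Of all tested genes 5.54% were lower and 3.02% higher, and the counts of pairs were not tested against chance. The pairs include close paralogs that may share reads. Higher together were the chemokine genes Pf4, Cxcl3, Cxcl1 and Cxcl2 within 133.5 kb of chromosome 5, of which Cxcl2 lost its call without vehicle 2, vehicle 3, vehicle 5, CBPi 6 or CBPi 8 and in the 20-library fit (adjusted p up to 0.0719). Lower together were Ly6e, Ly6i, Ly6a, Ly6c1 and Ly6c2 within 157.0 kb of chromosome 15, close paralogs of the Ly6 family whose reads may be shared. The call of Ly6e was lost without vehicle 2, vehicle 3, CBPi 7, CBPi 9 or CBPi 10 (adjusted p up to 0.0802), and that of Ly6i, whose groups overlapped, without CBPi 6, CBPi 9 or CBPi 10 (adjusted p up to 0.0576). A run of 8 Ugt1a genes on chromosome 1 shares exons, so its members cannot be told apart in these counts. These runs were noticed after the values were seen.

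By symbol, 7 of 12 tested Tlr genes were lower and 0 higher (median -0.74), and 5 of 9 Tnfsf genes were lower and 0 higher (median -0.97). Both families were picked after the values were seen. The pattern recognition list, which holds the Tlr genes, had 5 members lower in all without vehicle 2, vehicle 3 or CBPi 10, so not every Tlr call held. Over all tested genes 5.54% were lower. Genes of ribosomal proteins were not called: 0 of 47 Rpl genes (median -0.24) and 0 of 40 Rps genes (median -0.21). Of 296 Zfp genes, which encode zinc finger proteins, 4 were higher and 4 lower (median 0.16). Slc9a4, a sodium and proton exchanger gene at 0.921 to 2.80 CPM in the vehicle libraries, had 0 counts in all 5 CBPi libraries.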
